A study of Mus musculus with 7 samples.

Results

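The let-7 and miR-98 family was followed through 7 small RNA libraries of vesicles from mouse visceral fat. Its 10 rows were taken by name from a table of 820 miRNAs, and all 10 were present: mmu-let-7a-5p, mmu-let-7b-5p, mmu-let-7c-5p, mmu-let-7d-5p, mmu-let-7e-5p, mmu-let-7f-5p, mmu-let-7g-5p, mmu-let-7i-5p and mmu-miR-98-5p, with mmu-let-7d-3p from the opposite arm of the let-7d hairpin. The species prefix mmu is left out from here on. Extracellular vesicles, membrane particles shed by cells, came from the epididymal fat pad (eWAT) of male ApoE-/- mice, which lack apolipoprotein E and are prone to atherosclerosis. The HFD+Ni group (n = 3) ate a high-fat diet and was given nicotine at 2 mg/kg/day, and the HFD group (n = 4) ate the high-fat diet without it. Both groups carried the ApoE deletion and are given with an age of 8 weeks and a treatment of 12 weeks. The 8 weeks cannot be the age at the end of that treatment, and the time point meant was not determined. Every library has the batch label 1. The labels do not tie a library to 1 animal, so p-values measure the spread between these samples, which may be partly technical. A vesicle preparation also pools the output of all cells of the pad, so fewer vesicles of a cell type and less of a miRNA per vesicle cannot be told apart.

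A miRNA is cut from a hairpin precursor, whose left and right strands give the 5p and 3p arms. Usually 1 arm is loaded into an Argonaute protein and the other is degraded. A loaded miRNA finds messenger RNAs mainly through its seed, the bases 2 to 8 from its 5′ end, and lowers their output. The let-7 family is among the oldest animal miRNA families. It was found in Caenorhabditis elegans as a timer of late larval development, and in mammals it accumulates as cells differentiate and restrains Hmga2, Lin28 and Ras genes. The RNA-binding proteins LIN28A and LIN28B block its maturation in turn. In mice, forced let-7 expression impairs glucose tolerance, and Lin28 raises insulin sensitivity.

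The sequences are shown because the members share a seed and differ by few bases elsewhere. Mature sequences were found for 10 of the 10 members in RefSeq (GRCm38.p6). They are written 5′ to 3′ with the seed in capitals:
let-7a-5p: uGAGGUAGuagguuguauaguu
let-7b-5p: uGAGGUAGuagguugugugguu
let-7c-5p: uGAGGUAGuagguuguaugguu
let-7d-5p: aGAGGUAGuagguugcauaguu
let-7e-5p: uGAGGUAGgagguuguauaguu
let-7f-5p: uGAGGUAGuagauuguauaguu
let-7g-5p: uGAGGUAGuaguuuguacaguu
let-7i-5p: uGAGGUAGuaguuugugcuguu
miR-98-5p: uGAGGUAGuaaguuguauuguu
let-7d-3p: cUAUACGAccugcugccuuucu
The 9 members of the 5p arm share 1 seed, and let-7d-3p has another. Among 1679 mature mouse miRNAs, 11 carry the let-7 seed, the others being let-7k and miR-1961, and let-7d-3p is alone with its seed. Differences from let-7a-5p are given with the let-7a-5p base first and positions counted from 1 at the 5′ end. A single base separates let-7a-5p from let-7c-5p (A19G), let-7e-5p (U9G) and let-7f-5p (G12A). let-7b-5p carries A17G and A19G, so that it stands 1 base from let-7c-5p. let-7d-5p differs by U1A and U16C, let-7g-5p by G12U and U18C, miR-98-5p by G11A and A19U, and let-7i-5p by G12U, A17G, U18C and A19U. All 10 sequences are 22 bases long, so no correction for length was made between them. Whether their sequences are read equally well was not tested, which limits comparisons of level between members and arms.

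The members come from 12 genes on GRCm38 (positions from GENCODE M21). On chromosome 13, Mirlet7d (48536012 to 48536114), Mirlet7f-1 (48537829 to 48537917) and Mirlet7a-1 (48538179 to 48538272) lie on the minus strand within exons of the long noncoding RNA gene 6720427I07Rik. On chromosome 15, Mirlet7c-2 (85706603 to 85706697) and Mirlet7b (85707319 to 85707403) lie 621 bases apart in exonic sequence of Lncppara. On the X chromosome, Mirlet7f-2 (151912346 to 151912428) and Mir98 (151913214 to 151913321) lie 785 bases apart in an intron of Huwe1. Mirlet7c-1, Mirlet7e and Mirlet7a-2 sit with miR-99, miR-100 or miR-125 genes. Mirlet7c-1 (chromosome 16, 77599657 to 77599750) lies 656 bases from Mir99a in an intron of Mir99ahg, and Mirlet7e (chromosome 17, 17830352 to 17830444) lies 94 bases from Mir99b in an intron of Spaca6. Mirlet7a-2 (chromosome 9, 41536716 to 41536811) lies 5211 bases from Mir100 in an intron of 3110039I08Rik. Mirlet7g (chromosome 9, 106178840 to 106178927, an intron of Wdr82) and Mirlet7i (chromosome 10, 122985640 to 122985724, within an exon of D630033A02Rik) have no such neighbour. let-7a, let-7c and let-7f are thus each made by a pair of genes, and their mature reads cannot be traced to either.

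The HFD+Ni libraries held 53626 to 175892 miRNA reads and the HFD libraries 77021 to 1055902, the largest being HFD replicate 2. Levels are given as reads per 1000000 miRNA reads (rpm), and 1 read is worth 18.6 rpm in the shallowest library, HFD+Ni replicate 1, and 0.947 rpm in the deepest. The 6 adipose miRNAs listed for the check of the tissue (miR-193b-3p, miR-365-3p, miR-378a-3p, miR-335-5p, miR-103-3p and miR-196a-5p) were all read, and summed to 7888 to 17113 rpm in HFD+Ni and 12854 to 19544 rpm in HFD. None of them is made by fat cells alone. The 6 epithelial miRNAs were highest in HFD+Ni replicate 1, at a sum of 45146 rpm. They summed to 6311 and 6820 rpm in the other HFD+Ni libraries and to 4813 to 13605 rpm in HFD. The 7 testis and epididymis miRNAs summed to 1200 to 2258 rpm in HFD+Ni and to 596 to 1077 rpm in HFD, and the 2 endothelial ones to 12979 to 18852 rpm and 20518 to 32381 rpm, the groups being separate in both. For striated muscle, 5 of 6 markers had values, which summed to 762 to 1156 rpm in HFD+Ni and 866 to 4301 rpm in HFD. For blood, 6 of 7 had values, which summed to 1865 to 3514 rpm in HFD+Ni and 3259 to 4751 rpm in HFD. The part of these lists in the results below was not tested.

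Within the family, let-7c-5p, let-7a-5p and let-7b-5p formed a top tier, let-7f-5p and let-7e-5p a second, and the remaining members trailed far behind. let-7c-5p was at 169377, 176034 and 176771 rpm in HFD+Ni replicates 1 to 3, against 169296, 138295, 169455 and 163644 rpm in HFD replicates 1 to 4. let-7a-5p was at 141629, 130370 and 134274 rpm in HFD+Ni, against 135677, 123156, 138491 and 144545 rpm in HFD. let-7b-5p was at 133592, 140251 and 148870 rpm in HFD+Ni, against 130789, 105161, 127874 and 134924 rpm in HFD. The ranges of the groups overlapped for each of the 3, and HFD replicate 2 was the lowest library for each. They made up 81.1% ± 0.512 of the family's reads in HFD+Ni (SD, n = 3) and 78.5% ± 1.71 in HFD (SD, n = 4), with every HFD+Ni library (80.8% to 81.7%) above every HFD library (76.4% to 80.5%). The shares are a description of the members and carry no test.

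**Figure D1:**
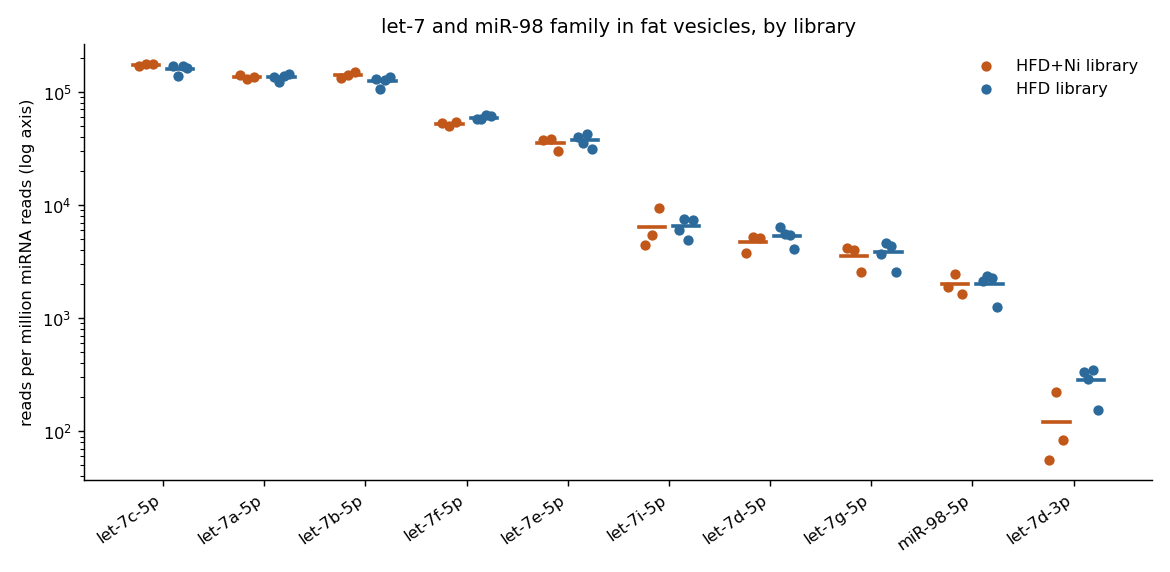
Level of each family member in rpm (vertical log axis), members ordered by their mean. Each point is a library (HFD+Ni left, n = 3; HFD right, n = 4) and the bar is the group mean; let-7c-5p lies between 138295 and 176771 rpm and let-7d-3p between 55.9 and 349 rpm.

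In the second tier, let-7f-5p was at 53165, 50053 and 53841 rpm in HFD+Ni, against 57141, 57408, 61834 and 60555 rpm in HFD. It was the only member whose groups did not overlap, all HFD+Ni libraries lying below all HFD libraries. let-7e-5p was at 37873, 38416 and 30270 rpm in HFD+Ni, against 40140, 35380, 42551 and 31433 rpm in HFD, and its lowest values were in 1 library of each group. let-7a-5p, let-7b-5p, let-7c-5p, let-7e-5p and let-7f-5p together held 97.0% ± 0.376 of the family in HFD+Ni and 96.6% ± 0.631 in HFD. The order of the tiers was the same in all 7 libraries. Within the top tier let-7c-5p led in each, while let-7a-5p and let-7b-5p, whose ranges overlap in both groups, changed places: let-7b-5p was above let-7a-5p in HFD+Ni replicates 2 and 3 and below it in the other 5 libraries.

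The minor 5p members lay between 1259 and 9347 rpm, in an order that varied with the library. let-7i-5p was at 4457, 5452 and 9347 rpm in HFD+Ni, against 5976, 7569, 4938 and 7336 rpm in HFD. let-7d-5p was at 3748, 5253 and 5064 rpm in HFD+Ni, against 6335, 5577, 5381 and 4090 rpm in HFD. let-7g-5p was at 4140, 3968 and 2564 rpm in HFD+Ni, against 3712, 4629, 4367 and 2545 rpm in HFD. miR-98-5p was at 1902, 2479 and 1635 rpm in HFD+Ni, against 2116, 2381, 2282 and 1259 rpm in HFD. let-7g-5p, miR-98-5p and let-7e-5p were all lowest in the same 2 libraries, HFD+Ni replicate 3 and HFD replicate 4, where let-7i-5p was among the 3 highest. The highest library was 2.10 times the lowest for let-7i-5p, 1.97 times for miR-98-5p and 1.82 times for let-7g-5p, against 1.17 to 1.42 times for the 5 abundant members. The smallest library held 102 reads of miR-98-5p and 9083 of let-7c-5p, so counting error weighs more on the minor members.

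HFD+Ni was then compared with HFD in limma on log2(rpm + 1), and p-values were Benjamini-Hochberg adjusted over 387 miRNAs whose mean reached 5 rpm. All 10 members passed that filter. At a threshold of 0.05 on the adjusted p, limma called 0 of the 10, against 0.0% of all tested miRNAs. On the unadjusted p it called 0 of the 10, against 2.84% of all tested, 1.29% lower and 1.55% higher in HFD+Ni. edgeR and DESeq2 called 0 of the 10 on either p. Across all tested miRNAs, limma called 0 on the adjusted and 11 on the unadjusted p, edgeR 0 and 28, and DESeq2 1 and 19. Of the members, 6 had a log2 fold change below 0 and 4 above, against 47.3% below 0 among all tested, and other settings put between 4 and 9 of them below 0. The median log2 fold change was -0.07 for the members and 0.04 for all tested miRNAs. Groups did not overlap for 1 of the 10, against 5.17% of the tested miRNAs, or 2.33% with HFD+Ni below.

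For the abundant members the intervals of limma for the difference in rpm were narrow. The log2 fold change was 0.00 for let-7a-5p (95% interval -0.28 to 0.28), 0.18 for let-7b-5p (-0.12 to 0.48) and 0.12 for let-7c-5p (-0.16 to 0.40). It was -0.18 for let-7f-5p (-0.48 to 0.13) and -0.07 for let-7e-5p (-0.46 to 0.31). In folds, the interval for let-7a-5p runs from 0.826 to 1.21 and that for let-7f-5p from 0.715 to 1.09. Each rpm is a share of a total of which the family held 48.0% to 56.3%. Scaled to reads outside the family, the log2 fold change was 0.062 for let-7a-5p, 0.24 for let-7b-5p and 0.19 for let-7c-5p. It was then -0.12 for let-7f-5p and -0.011 for let-7e-5p. The values also depended on the tool. In edgeR the log2 fold change was -0.13 for let-7a-5p, 0.053 for let-7b-5p and -0.0042 for let-7c-5p. There it was -0.30 for let-7f-5p and -0.20 for let-7e-5p. On rpm, the standard errors of the members had a median of 0.21 on the log2 scale, against 1.598 over all tested miRNAs. Abundant miRNAs outside the family had similar ones, 0.16 for miR-29a-3p and 0.19 for miR-30a-5p. let-7d-5p had a log2 fold change of -0.19 (-0.73 to 0.36), let-7g-5p -0.10 (-0.75 to 0.55), let-7i-5p -0.06 (-0.69 to 0.57) and miR-98-5p 0.02 (-0.69 to 0.73). The adjusted p of the members lay between 0.830 and 0.996 in limma. let-7b-5p lay higher, and let-7d-5p, let-7d-3p and let-7f-5p lower, under each alternative setting, while the sign of each of the other 6 turned in at least 1 setting. The sizes were less steady than the signs. For let-7d-5p the log2 fold change was -0.10 without HFD replicate 1, -0.31 without HFD replicate 4 and -0.034 without HFD+Ni replicate 1. Without HFD replicate 2, it was 0.10 for let-7b-5p and 0.056 for let-7c-5p. The authors' deposited table gives an FDR of 1 for each of the 10.

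**Figure D2:**
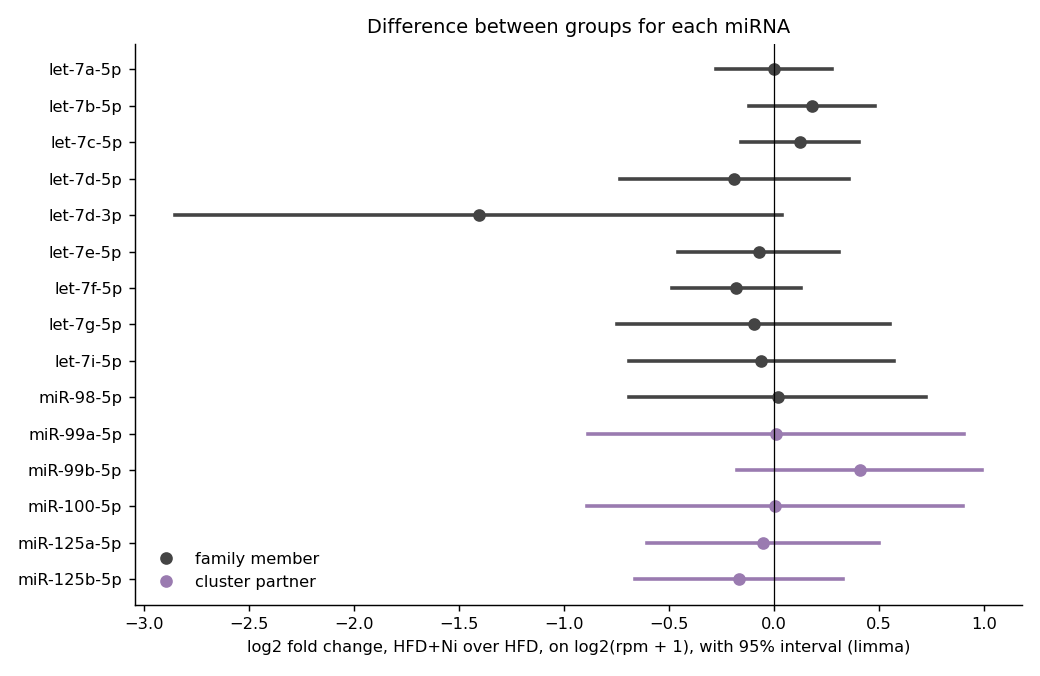
log2 fold change of HFD+Ni over HFD (horizontal axis) for the 10 members and 5 miRNAs of neighbouring genes, with 95% intervals from limma (lines). Every interval spans 0; those of let-7a-5p, let-7b-5p, let-7c-5p and let-7f-5p are the narrowest, and let-7d-3p lies farthest from 0 at -1.40.

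The member with the largest difference was let-7d-3p, the minor arm of its hairpin. It was at 55.9, 222 and 83.6 rpm in HFD+Ni replicates 1 to 3, against 334, 293, 349 and 156 rpm in HFD replicates 1 to 4. HFD+Ni replicates 1 and 3 lay below all HFD libraries, and HFD+Ni replicate 2 lay above HFD replicate 4, so the groups overlapped. The means were 120 ± 88.8 rpm in HFD+Ni (SD, n = 3) and 283 ± 88.0 rpm in HFD (SD, n = 4), 2.35-fold lower in HFD+Ni. The log2 fold change was -1.40 (SE 0.66, 95% interval -2.85 to 0.04), which missed the threshold in limma (unadjusted p = 0.0557, adjusted p = 0.830). The values rest on 3, 39 and 9 reads in HFD+Ni, against 27, 309, 41 and 12 reads in HFD. Of the 387 tested miRNAs, 12 had a smaller p. The authors' deposited table gives let-7d-3p a log2 fold change of -1.16 at a p-value of 0.0791. Without HFD+Ni replicate 2 the log2 fold change was -1.97 (limma adjusted p = 0.732), and without HFD+Ni replicate 1 it was -0.98 (adjusted p = 0.914).

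Both arms are cut from the same precursor, shown here with the 5p arm and then the 3p arm in capitals (Mirlet7d, RefSeq, GRCm38.p6, chromosome 13, 48536012 to 48536114, minus strand, 103 bases):
Mirlet7d: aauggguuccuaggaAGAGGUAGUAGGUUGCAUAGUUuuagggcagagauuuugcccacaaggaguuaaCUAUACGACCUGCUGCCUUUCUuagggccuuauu
The 3p arm took 1.47%, 4.05% and 1.62% of the let-7d reads in HFD+Ni replicates 1 to 3, against 5.01%, 4.99%, 6.09% and 3.67% in HFD replicates 1 to 4. In HFD+Ni replicate 1 the exact Clopper-Pearson 95% interval ran from 0.304% to 4.24% (3 reads of the 3p arm beside 201 of the 5p arm), and in HFD+Ni replicate 3 from 0.745% to 3.06%. In HFD replicate 2, the deepest library, it ran from 4.46% to 5.56%, and in HFD replicate 3 from 4.41% to 8.17%. The interval of HFD+Ni replicate 3 lies below those of HFD replicates 1, 2 and 3, while HFD+Ni replicate 2 and HFD replicate 4 cover each other's values. These intervals hold counting error only, since PCR copies of a molecule are not independent.

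The log2 ratio of let-7d-3p over let-7d-5p averaged -5.50 ± 0.82 in HFD+Ni (SD, n = 3) and -4.28 ± 0.31 in HFD (SD, n = 4). The difference of -1.22 did not pass an exact two-sided permutation test with its 35 arrangements (p = 0.114), which cannot go below 0.0571 with 3 against 4 libraries. It ranged from -0.95 without HFD+Ni replicate 1 to -1.69 without HFD+Ni replicate 2. The 5p arm moved less, with means of 4688 ± 820 rpm in HFD+Ni and 5346 ± 933 rpm in HFD. HFD+Ni replicate 1, the library lowest in both let-7d arms, also had the lowest sum of the adipose list, 7888 rpm against 12854 to 19544 rpm in the other 6 libraries, and the highest epithelial sum. The part of those cells in the arm ratio was not tested.

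**Figure D3:**
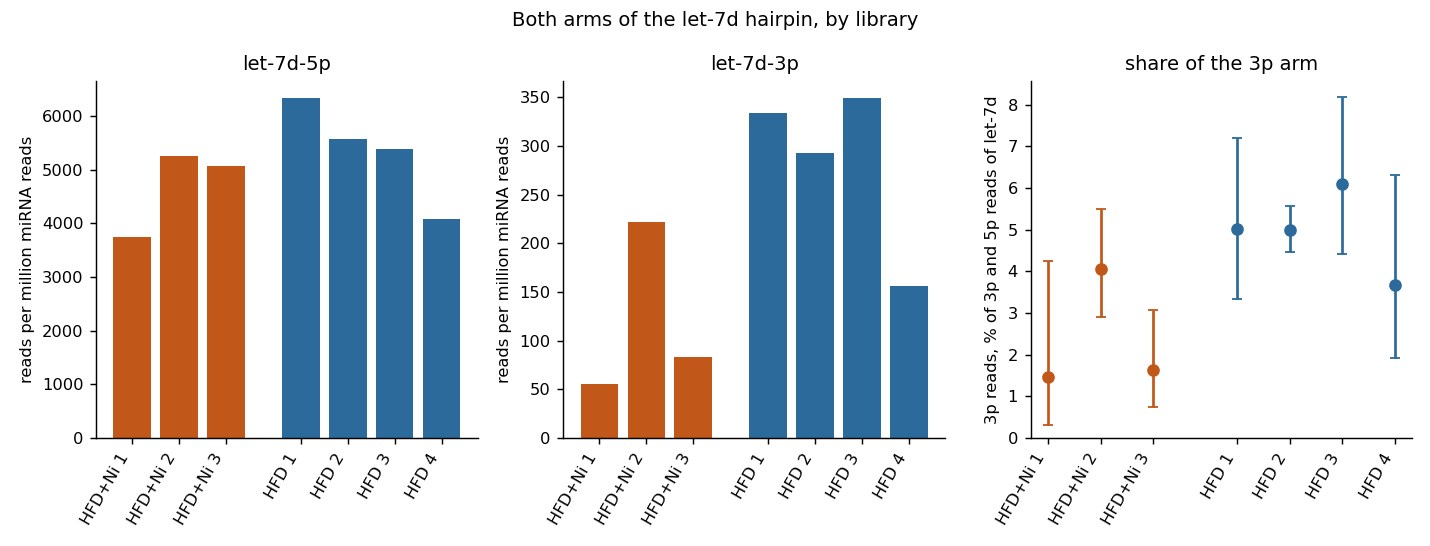
Both arms of let-7d by library, HFD+Ni left of HFD: rpm of the 5p arm, rpm of the 3p arm, and the 3p share of all let-7d reads with exact 95% intervals (error bars). HFD+Ni replicates 1 and 3 have the lowest 3p shares, 1.47% and 1.62%, and HFD+Ni replicate 2 at 4.05% lies among the HFD libraries.

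let-7d stood apart from the other hairpins of the family in how much of its minor arm was read. Over all 7 libraries, 440 reads of let-7d-3p stood against 9018 of let-7d-5p, or 4.65%. For let-7i the 3p arm had 16 reads against 11824 of the 5p arm, or 0.135%, and for miR-98 it had 3 against 3764, or 0.0796%. For let-7f-2 the share was 0.0328%, for let-7c-2 0.0123%, for let-7e 0.00999%, for let-7c-1 0.00597%, for let-7b 0.00564% and for let-7a-2 0.00141%. The 5p reads of let-7a, let-7c and let-7f come from a pair of genes each, so their shares are set against both. let-7c-2-3p has the same 22 bases as let-7a-1-3p, so its reads cannot be traced to 1 hairpin. The 3p arms of let-7f-2 and let-7c-2 held equal counts of 31 reads, so their shares are not separate cases. Of 11 opposite arms listed, 8 had a row, and 3 of these reached a mean of 5 rpm. No test was made between hairpins, whose reads are few: let-7e-3p, let-7a-2-3p and let-7c-1-3p were read only in HFD replicate 2, the deepest library. Their 0 reads in HFD+Ni, out of 12046, 44978 and 59072 reads of both arms, allow shares of up to 0.0249%, 0.00667% and 0.00508%, the shares that 3 reads would make. The exact Clopper-Pearson 95% intervals end somewhat higher, at 0.0306%, 0.00820% and 0.00624%.

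Some near-identical miRNAs held equal or nearly equal reads, and whether the counting told them apart was not tested. let-7c-2-3p and let-7f-2-3p, which differ by A8G and by 1 base in length, held equal reads in every library, 31 in all. The arms are written here with the seed in capitals:
let-7c-2-3p: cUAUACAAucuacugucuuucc
let-7f-2-3p: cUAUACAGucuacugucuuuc
Likewise miR-100-5p stood at 99.7% to 100.5% of miR-99a-5p, from which it differs by U16A. For such pairs the level of either miRNA is uncertain, and whether the abundant members share reads was not tested either. Among the 36 pairs of 5p members, the 3 steadiest ratios were between members that differ by 1 base. The SD of the log2 ratio over the 7 libraries was 0.06 for let-7b-5p with let-7c-5p, 0.10 for let-7a-5p with let-7c-5p, 0.11 for let-7a-5p with let-7f-5p and 0.20 for let-7a-5p with let-7e-5p, the 4 pairs that differ by 1 base. The median SD was 0.11 over these 4 pairs, 0.35 over 10 pairs with 2 differing bases, 0.27 over 11 with 3 and 0.39 over 9 with 4. The pairs share libraries and members, and those with 1 differing base are also between abundant members. The order was not strict: let-7a-5p with let-7b-5p (SD 0.13, 2 differing bases), let-7g-5p with miR-98-5p (0.18, 4 bases) and let-7c-5p with let-7f-5p (0.19, 2 bases) were steadier than let-7a-5p with let-7e-5p.

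A sum relation, found after the values were seen, held in every library. let-7c-5p equalled let-7b-5p plus let-7e-5p to within 1.63%. It was 98.8%, 98.5% and 98.7% of that sum in HFD+Ni replicates 1 to 3, against 99.0%, 98.4%, 99.4% and 98.4% in HFD replicates 1 to 4. Most of the sum is let-7b-5p, which makes the match look closer. The excess of let-7c-5p over let-7b-5p was 91.4% to 97.7% of let-7e-5p. The relation stood also in HFD replicate 2, whose sum of 140541 rpm was far under the 166357 to 179140 rpm of the other 6 libraries. let-7c-5p is 1 base from let-7b-5p and 2 from let-7e-5p. What gives this relation was not tested, so the levels of the 3 members should not be taken as independent measurements.

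**Figure D4:**
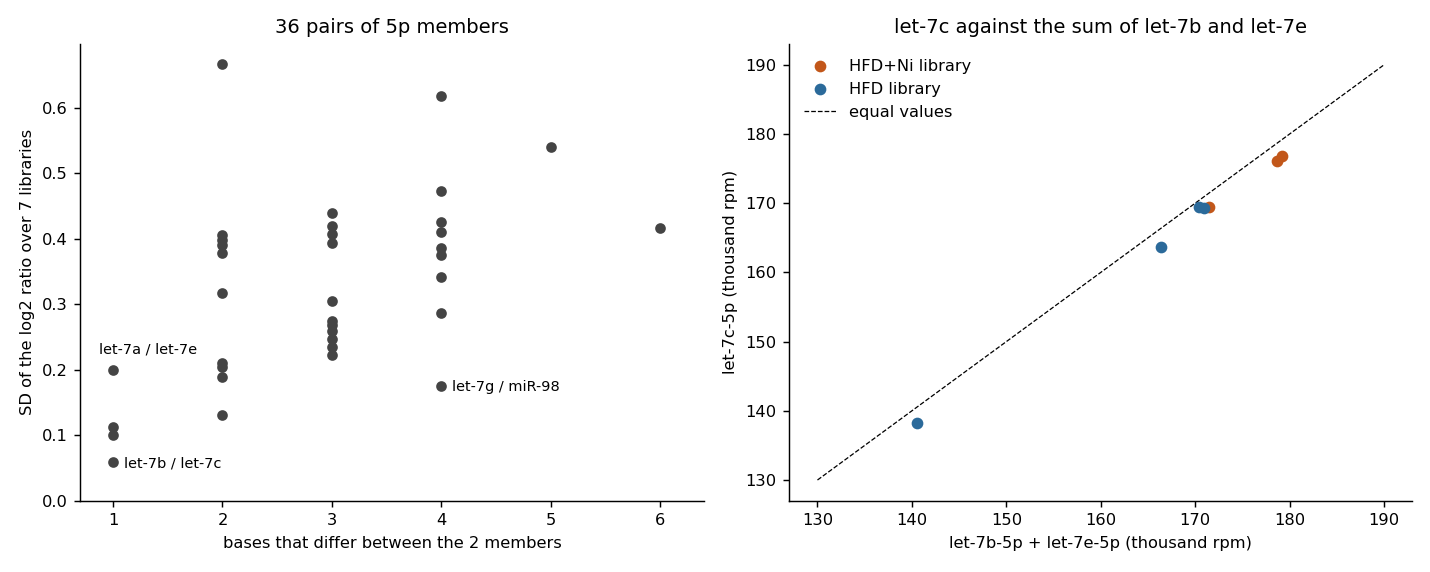
Left, the SD of the log2 ratio over 7 libraries (vertical axis) against the number of bases that differ (horizontal axis) for the 36 pairs of 5p members, each a point. Right, let-7c-5p against the sum of let-7b-5p and let-7e-5p per library (HFD+Ni and HFD coloured), with the line of equal values; all 7 libraries lie 0.569% to 1.63% under it.

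Of the let-7 relatives outside the 10, let-7j and let-7k were read at levels like those of the minor members. They are shown with bases 2 to 8 in capitals, since let-7j alone changes a seed base:
let-7j: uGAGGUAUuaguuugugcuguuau
let-7k: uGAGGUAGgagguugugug
let-7j differs from let-7i-5p by G8U and by 2 further bases at its 3′ end. Its level was 79.9%, 71.2% and 81.4% of let-7i-5p in HFD+Ni, against 76.8%, 81.1%, 75.7% and 86.9% in HFD, a ratio with an SD of 0.09 on the log2 scale. Both miRNAs were highest in HFD+Ni replicate 3, at 7609 rpm for let-7j and 9347 rpm for let-7i-5p. let-7k, of 19 bases, was at 3133, 5032 and 5333 rpm in HFD+Ni, against 5135, 3180, 2503 and 3194 rpm in HFD. Its 19 bases differ from let-7b-5p by U9G, yet its ratio to let-7b-5p had an SD of 0.38. limma called neither (log2 fold change -0.11 with SE 0.32 for let-7j and 0.37 with SE 0.31 for let-7k, adjusted p = 0.967 and 0.830).

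The balance between members of a cluster was compared by log2 ratios, with exact two-sided permutation over libraries and Benjamini-Hochberg adjustment over 9 ratios. let-7a-5p over let-7f-5p, from genes 261 bases apart on chromosome 13, was 2.66, 2.60 and 2.49 in HFD+Ni, against 2.37, 2.15, 2.24 and 2.39 in HFD. Both miRNAs also come from a gene elsewhere, Mirlet7a-2 and Mirlet7f-2, so ratios with either mix clusters. Every HFD+Ni library was above every HFD library, with a log2 difference of 0.18 and the smallest p the design allows (exact p = 0.0571, adjusted p = 0.514). It lay between 0.15 and 0.21 with any 1 library left out, and at 0.13 with both HFD replicate 2 and HFD+Ni replicate 1 left out. With all libraries thinned to the depth of the smallest, the difference was 0.17 and no longer at the smallest p (exact p = 0.114). let-7f-5p made up 9.43% ± 0.326 of the family in HFD+Ni and 11.1% ± 0.659 in HFD, without overlap. The share of let-7c-5p did not overlap either, at 31.4% ± 0.533 in HFD+Ni and 29.9% ± 0.831 in HFD. Shares of 1 family depend on each other, and let-7f-5p enters the ratio too, so these are not separate results. let-7d-5p over let-7f-5p, of the same cluster, did not differ beyond its spread (0.0898 ± 0.0176 in HFD+Ni and 0.0906 ± 0.0182 in HFD, exact p = 1).

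On chromosome 15, let-7b-5p over let-7c-5p was 0.789, 0.797 and 0.842 in HFD+Ni, against 0.773, 0.760, 0.755 and 0.824 in HFD. The log2 difference was 0.06 (exact p = 0.229, adjusted p = 0.686). let-7c-5p also comes from Mirlet7c-1 on chromosome 16, so ratios with it mix clusters. Since let-7c-5p nearly equalled let-7b-5p plus let-7e-5p, this ratio should not be taken as independent of let-7e-5p either. On the X chromosome, miR-98-5p over let-7f-5p was 0.0386 ± 0.00987 in HFD+Ni and 0.0340 ± 0.00909 in HFD (exact p = 0.743, adjusted p = 1), with HFD replicate 4 lowest at 0.0208. Only the second gene of let-7f-5p lies beside Mir98, so the ratio mixes both let-7f clusters.

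The miR-99, miR-100 and miR-125 partners, of the oldest miRNA clusters in animals, are cut from shared or neighbouring transcripts. Ratios to miR-99a-5p and miR-100-5p varied more than those between 5p members of a cluster, with an SD of the log2 ratio of 0.61 each. The other partner ratios did not stand out. Their SDs were 0.30 (let-7e-5p over miR-125a-5p), 0.36 (let-7a-5p over miR-125b-5p) and 0.37 (let-7e-5p over miR-99b-5p), against 0.39 for miR-98-5p over let-7f-5p. let-7e-5p over miR-99b-5p was 14.1, 14.2 and 10.5 in HFD+Ni, against 18.2, 14.1, 24.3 and 16.5 in HFD. The groups overlapped only through HFD replicate 2, and the log2 difference was -0.48 (exact p = 0.171, adjusted p = 0.686). let-7e-5p over miR-125a-5p, the other neighbour, had a log2 difference of -0.02 (exact p = 0.914). let-7c-5p over miR-99a-5p ran from 48.3 to 154 in HFD+Ni and from 55.0 to 112 in HFD (exact p = 0.857), and let-7a-5p over miR-100-5p from 36.7 to 129 and from 48.9 to 91.4 (exact p = 1). These last ratios share a denominator in effect, since miR-99a-5p and miR-100-5p hold nearly equal reads. let-7a-5p over miR-125b-5p was 3.61 ± 0.878 in HFD+Ni and 3.26 ± 0.972 in HFD (exact p = 0.571).

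**Figure D5:**
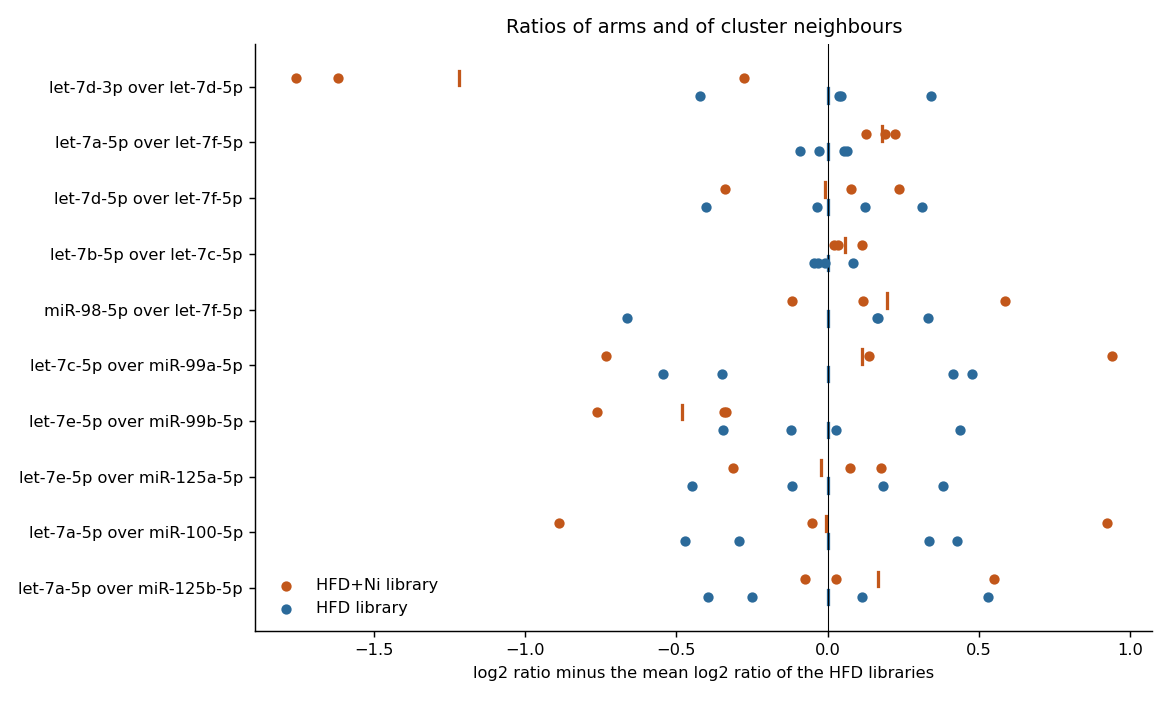
log2 ratio of the let-7d arms and of 9 pairs of cluster neighbours (rows) in each library, shown as the difference from the mean of the HFD libraries (horizontal axis); HFD+Ni points are above HFD points in each row and ticks mark group means. let-7a-5p over let-7f-5p is the one ratio whose groups do not overlap, and let-7d-3p over let-7d-5p has the largest difference between means, -1.22.

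Of the 5 partner miRNAs, 3 had a log2 fold change above 0 and 2 below, and limma called 0 of them on either p. miR-99b-5p was at 2685, 2712 and 2871 rpm in HFD+Ni, against 2203, 2514, 1754 and 1909 rpm in HFD. Its groups did not overlap, and its log2 fold change was 0.41 (SE 0.27, limma adjusted p = 0.830). miR-99a-5p was at 1100, 1996 and 3661 rpm in HFD+Ni, against 1584, 2513, 1515 and 2597 rpm in HFD. miR-99a-5p, miR-100-5p and let-7i-5p were all highest in the same 3 libraries, HFD+Ni replicate 3 and HFD replicates 2 and 4. miR-125b-5p averaged 38945 ± 9179 rpm in HFD+Ni and 43795 ± 10450.5 rpm in HFD, and miR-125a-5p 16195 ± 4367 and 16862 ± 4906 rpm.

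Likeness to the family was measured as the SD over the 7 libraries of the log2 ratio to the summed 5p members, among 107 other miRNAs that were read in every library and whose mean reached 200 rpm. The 5 most alike were miR-29a-3p (SD 0.18), miR-29c-3p (0.18), miR-30a-5p (0.19), miR-30d-5p (0.20) and miR-191-5p (0.20), against a median of 0.58. miR-29a-3p and miR-29c-3p held nearly equal reads in every library and cannot be counted as separate cases. miR-30a-5p and miR-30d-5p also moved together and may not be separate cases either. Both were lowest in HFD+Ni replicate 3 (16296 and 15711 rpm) and highest in HFD replicate 4 (24695 and 23864 rpm). miR-29a-3p was at 34330, 32372 and 31738 rpm in HFD+Ni, against 30538, 36274, 33067 and 27577 rpm in HFD. The 5 most like let-7d-3p were other miRNAs, with larger SDs: miR-497a-5p (SD 0.42), miR-126a-5p (0.47), miR-365-3p (0.58), miR-30c-5p (0.61) and miR-30b-5p (0.61), against a median of 1.09. Counting error widens each ratio to let-7d-3p, which had 3 reads in HFD+Ni replicate 1 and 9 in HFD+Ni replicate 3. The SDs of the 2 lists are therefore not on equal terms. miR-497a-5p was at 186, 688 and 186 rpm in HFD+Ni, against 742, 664, 519 and 260 rpm in HFD. The same libraries were low as for let-7d-3p, which the choice by a small SD favours. The log2 fold change of miR-497a-5p was -0.82 (SE 0.59), and that of miR-126a-5p, an endothelial miRNA, was -0.98 (SE 0.37), both at a limma adjusted p of 0.830.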

How the data were processed

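The deposited table lists 820 miRNAs under the name TPM. Its values were treated as RPM, since each of the 7 deposited columns sums to 1000000 with no length scaling. Dividing by the worth of 1 read gave whole reads for 100% of values within 0.1 read. The submitters' processing notes name edgeR and GRCm38 (mm10). For the aligner, the counter, its mismatch setting and the miRNA annotation, the sources used here give no name. Also deposited are the authors' p-value per miRNA, its FDR and the log2 fold change of HFD+Ni over HFD. In a second list, holding no family member, 1 per-sample column matched no label and was not used.

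Groups were compared two-sided in R 4.3.3 with limma 3.58.1, using a mean-variance trend, after adding 1 rpm, taking log2 and keeping means of 5 rpm or more. edgeR 4.0.16 and DESeq2 1.42.0 were run on the recovered reads, and scipy 1.17.1 gave exact permutations. The models were also run on simulated data with planted changes larger than the difference of any member. That run does not show whether changes as small as those of the members would be found. Other alternatives were pseudocounts of 0.5 and 5 rpm, a filter at 50 rpm or none, TMM, scaling to reads outside the family, library weights, a replicate block, thinning and left-out libraries. Members, lists and tests were chosen with earlier results of these data known. The text names all members, 5 partners, family arms and the 5 miRNAs most alike.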

Additional observations from a re-analysis of the deposited data

Results flagged for a closer look

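In the 4 HFD libraries, 31 measures of the family were screened for a library far from the others by Dixon's test, which chance passes in about 1 of 20 groups, and 3 were marked. The family took 48.0% of the miRNA reads in HFD replicate 2, the deepest library, against 55.0% to 55.8% in the other 3 HFD libraries. let-7d-3p made up 0.0283% of the family's reads in HFD replicate 4, against 0.0606% to 0.0626% in the others, a value that rests on 12 reads. The log2 ratio of miR-98-5p over let-7f-5p was -5.59 in HFD replicate 4, against -4.76 to -4.59 in the others. The striated muscle list summed to 4301 rpm in HFD replicate 2 and 4025 rpm in HFD replicate 4, against 866 and 919 rpm in the other HFD libraries, and its part in these values was not tested.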

How the results depend on the processing

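With 18 alternative settings, no member was called at adjusted p under 0.05 in any, and over all tested miRNAs the count stayed at 0 except for 1 with DESeq2. The count at unadjusted p under 0.05, 11 in limma, ran from 6 to 28. The median log2 fold change of all tested miRNAs shifted by over 0.1 without a filter (-0.28), without HFD+Ni replicate 1 (0.205) and without it and HFD replicate 2 together (0.212). let-7d-3p kept a log2 fold change between -1.97 and -0.94 (adjusted p 0.652 to 0.918), at unadjusted p under 0.05 in 3 settings. The sign turned to below 0 for let-7a-5p with TMM (-0.010), edgeR (-0.13), DESeq2 (-0.0025), library weights (-0.0090) and without HFD replicate 2 and HFD+Ni replicate 1 (-0.077), and for let-7c-5p with edgeR (-0.0042). It turned to above 0 for let-7i-5p with scaling outside the family (0.00052), DESeq2 (0.0070), library weights (0.13) and without those 2 libraries (0.25). It turned to below 0 for miR-98-5p with edgeR (-0.13) and weights (-0.058), and with TMM for miR-99a-5p (-0.0011) and miR-100-5p (-0.0052), and to above 0 for miR-125a-5p with scaling outside the family (0.0091) and weights (0.040). Without those 2 libraries, let-7d-5p over let-7f-5p turned to 0.20 and let-7c-5p over miR-99a-5p to -0.48, and thinning turned let-7a-5p over miR-100-5p to 0.035. The cause was not tested.

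With 1 library left out, log2 fold changes ranged from -0.044 to 0.033 for let-7a-5p, -0.15 to 0.039 for let-7e-5p, 0.10 to 0.22 for let-7b-5p, 0.056 to 0.15 for let-7c-5p, -0.31 to -0.034 for let-7d-5p, -0.28 to 0.12 for let-7g-5p, -0.37 to 0.17 for let-7i-5p, -0.19 to 0.15 for miR-98-5p, -0.42 to 0.44 for miR-99a-5p, -0.43 to 0.44 for miR-100-5p, -0.26 to 0.13 for miR-125a-5p and -0.32 to 0.030 for miR-125b-5p. Log2 ratio differences ranged from -0.14 to 0.16 for let-7d-5p over let-7f-5p, -0.025 to 0.35 for miR-98-5p over let-7f-5p, -0.30 to 0.54 for let-7c-5p over miR-99a-5p, -0.17 to 0.13 for let-7e-5p over miR-125a-5p, -0.47 to 0.44 for let-7a-5p over miR-100-5p and -0.023 to 0.34 for let-7a-5p over miR-125b-5p.

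The groups share the replicate numbers 1 to 3. The deviations of same-numbered libraries from their group means correlated at 0.016, 0.19 and -0.099, and the main comparison used no pairing. Differently numbered libraries were not correlated, so whether same-numbered libraries share an origin was not tested. With the replicate block, 0 miRNAs were called, let-7d-3p was at -1.67, let-7i-5p at 0.0080 and miR-98-5p at -0.19. At 3 to 41 reads in 6 of the 7 libraries, depth limits let-7d-3p most among the 10 members, and the other 3p arms, at 3 to 31 reads in all, more still.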
